A study of Mus musculus with 4 samples.

Results

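Sfmbt2, Gab1, Smoc1 and Phf17 (the older symbol of Jade1) were followed in RNA sequencing of early mouse blastocysts made by somatic cell nuclear transfer (SCNT) or by in vitro fertilization (IVF). The 4 genes were taken by symbol from 23235 gene symbols, and each had a row in every library. SCNT embryos were made from B6D2F1/J oocytes that received nuclei of embryonic fibroblasts from a cross of 129S1/SvImj mothers and CAST/EiJ fathers, heterozygous for an Xist knockout. IVF embryos came from Xist knockout oocytes on a 129S1/Svj background, fertilized with wild-type CAST/EiJ sperm. Both groups therefore carried a 129-derived and a CAST/EiJ genome and an Xist knockout allele, and they differed in the strain of the oocyte that supplied the cytoplasm. Each group had 2 libraries, each a pool of 6 early blastocysts collected 96 hours after they were fertilized or activated. The SCNT files carry the gene name Kdm4d, which encodes a histone demethylase, in their column headings; no label speaks of it, and no source used here tells whether Kdm4d was given to these embryos. Nothing in the labels says that libraries of the same group had different parents, fibroblast cultures or days, so a p-value here reflects library-to-library spread alone, possibly technical.

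Most imprinted genes are silenced on a single parental allele by DNA methylation set in the germ line. In the mouse, a smaller set is silenced on the maternal allele by H3K27me3, a Polycomb histone mark deposited in the oocyte, with no need of maternal DNA methylation. Sfmbt2, Gab1, Smoc1, Phf17 and Slc38a4 belong to that set, called noncanonical imprints, and are expressed from the paternal allele in the preimplantation embryo; several remain imprinted only in extraembryonic tissue. A somatic nucleus does not carry the oocyte's H3K27me3 pattern, so both alleles of these genes can be expressed after nuclear transfer. The deposited files give a single value per gene and library, so the parental alleles are not separated here and the values are totals of both.

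Sfmbt2 encodes a Polycomb protein with MBT domains that partners with the DNA-binding protein YY1, and in mice it is needed to maintain trophoblast cells. Gab1 encodes a docking protein that carries signals from activated receptor tyrosine kinases to the PI3 kinase and ERK pathways, and mice without it have placental defects. Smoc1 encodes a secreted calcium-binding matrix protein of the SPARC family that antagonizes BMP signalling. Phf17 encodes a PHD-finger scaffold of the HBO1 histone acetyltransferase complex.

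Annotated starts of 3 of the genes are shown for the sequence context of these imprints; the values are per gene, so which start was used was not measured. RefSeq (GRCm38.p6) gave 8 windows of 300 bases, from 250 bases before a transcript start to 50 bases from the start on: 2 for Sfmbt2, 2 for Gab1 and 4 for Phf17. The windows printed are those that hold the YY1 core GCCATNTT or its reverse complement AANATGGC, searched on both strands and shown in capitals; this motif was chosen after the sequences had been seen. Each runs 5′ to 3′ on the gene's own strand, which is the minus strand for Gab1.
Sfmbt2, chr2:10372186-10372485, plus strand: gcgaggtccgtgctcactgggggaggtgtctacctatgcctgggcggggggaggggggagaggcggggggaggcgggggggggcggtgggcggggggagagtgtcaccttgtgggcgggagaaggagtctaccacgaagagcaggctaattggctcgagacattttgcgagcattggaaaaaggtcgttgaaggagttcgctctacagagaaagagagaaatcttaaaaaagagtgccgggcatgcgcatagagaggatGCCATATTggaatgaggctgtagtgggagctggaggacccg
Gab1, chr8:80880470-80880769, minus strand: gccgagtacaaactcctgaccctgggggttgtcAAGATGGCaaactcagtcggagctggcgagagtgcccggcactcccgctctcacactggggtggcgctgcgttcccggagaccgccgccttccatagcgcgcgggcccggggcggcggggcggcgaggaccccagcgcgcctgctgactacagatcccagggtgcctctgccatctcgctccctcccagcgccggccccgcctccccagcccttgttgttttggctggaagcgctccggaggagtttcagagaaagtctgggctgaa
Phf17, chr3:41563501-41563800, plus strand: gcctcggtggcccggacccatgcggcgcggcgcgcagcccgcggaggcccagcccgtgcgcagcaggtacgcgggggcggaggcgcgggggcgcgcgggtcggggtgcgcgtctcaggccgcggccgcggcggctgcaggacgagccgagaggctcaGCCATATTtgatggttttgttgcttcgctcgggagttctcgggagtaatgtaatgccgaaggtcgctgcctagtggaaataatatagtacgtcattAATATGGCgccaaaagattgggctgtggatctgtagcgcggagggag
The Sfmbt2 window held GCCATATT at position 260, counted from 1 at the window's 5′ end. The Gab1 window held AAGATGGC at position 34, a match on the opposite strand. The Phf17 window held GCCATATT at position 158 and AATATGGC, the opposite-strand form, at position 254, with no overlap between them. The motif lay in 3 of the 8 windows, at least 1 for each of the 3 genes. Among all RefSeq promoter windows of this length, 1988 of 32851 (6.05%) held it, and 1881 of 27025 genes (6.96%) had it in at least 1 window. Since the motif was chosen after the windows of these genes had been seen, their counts beside these shares are no test. The Gab1 windows also overlap each other, so the windows are not all separate. A match of letters does not show that a factor binds there. The 3 windows held 16 (Sfmbt2), 26 (Gab1) and 38 (Phf17) CpG dinucleotides, against a median of 7 over all windows.

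Values are FPKM, fragments scaled by transcript length and by the size of the library, and differences are SCNT minus IVF on the scale of log2(FPKM + 1), which understates the change of low genes. Between 10802 and 10923 genes per library reached 1 FPKM, and 11039 genes with a mean of at least 1 FPKM over the 4 libraries were tested with limma. Absolute depth is unknown, since read counts were not among the values. The embryos had the markers of their stage: all 19 trophectoderm markers and all 8 inner cell mass markers were tested, and 5 of 7 primitive endoderm markers. Of 10 fibroblast markers, 8 were under 1 FPKM in every library and Twist2 was at 0 in all 4; their summed level was 6.34 and 1.18 FPKM in SCNT libraries, against 3.49 and 1.65 FPKM in IVF libraries. Oocyte markers summed to 3.21 and 1.23 FPKM in SCNT and 4.15 and 1.79 FPKM in IVF, and cumulus and granulosa markers to under 1 FPKM in each library, with 3 of 8 at 0 in all. Kdm4d was at 0.0649 and 0.117 FPKM in SCNT and at 0 and 0.0382 FPKM in IVF.

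In each of the 4 genes the lower SCNT library stood above the higher IVF library, with SCNT means higher by 1.37-fold to 1.96-fold as ratios of means, and none of the 4 differences passed the adjusted threshold. At a limma p below 0.05 after Benjamini-Hochberg adjustment over all tested genes, 0 of the 4 were called, where 14 of 11039 tested genes (0.127%) were. At an unadjusted limma p below 0.05, 3 of the 4 (Sfmbt2, Gab1 and Smoc1) were higher in SCNT, where 469 tested genes (4.25%) were; 0 of the 4 were lower, where 314 (2.84%) were. The groups did not overlap for 4 of 4 genes, all higher in SCNT, where 2024 tested genes (18.3%) showed that pattern, and 1662 (15.1%) the opposite one. The 4 genes were chosen with earlier results of these data known, so these counts beside the shares are no test of the set. The median difference over all tested genes was 0.01. With 2 libraries against 2, the smallest two-sided p of an exact permutation test is 0.333, and each of the 4 genes reached it.

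**Figure D1:**
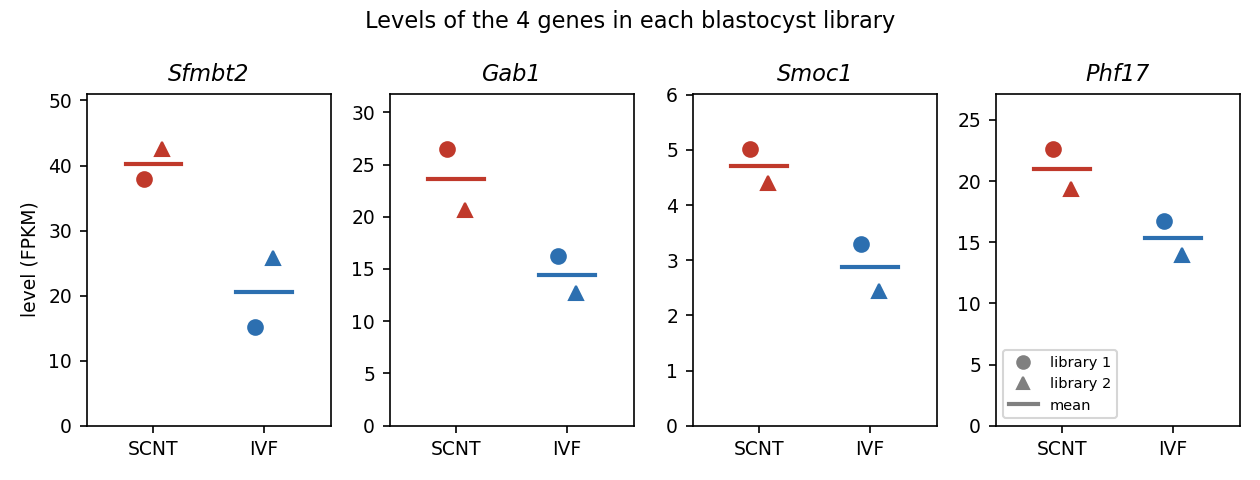
FPKM of Sfmbt2, Gab1, Smoc1 and Phf17 in each library, with SCNT left of IVF in every panel; points are libraries, horizontal lines are group means, and each panel has its own axis from 0. Both SCNT points lie above both IVF points in all 4 panels, most widely for the means of Sfmbt2 at 40.3 and 20.5 FPKM.

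Sfmbt2 had 38.0 and 42.6 FPKM in SCNT blastocysts, against 15.2 and 25.8 FPKM in IVF blastocysts. The SCNT libraries were close to each other and the IVF libraries were not: the second IVF library had 1.69 times the level of the first. Means were 40.3 ± 3.25 FPKM in SCNT and 20.5 ± 7.48 FPKM in IVF (SD, n = 2 each), a ratio of 1.96. The difference was 0.98 ± 0.28 (SE; 95% interval 0.26 to 1.71; limma adjusted p = 0.519), and 173 of the 11039 tested genes had a larger positive one. Without the first IVF library the difference was 0.62. The lowest SCNT value was 1.47 times the highest IVF value. Between libraries of the same replicate number, which the labels do not describe as pairs, the difference was 1.26 for number 1 and 0.70 for number 2. In level, Sfmbt2 stood at the 77.9th percentile of tested genes in SCNT and at the 65.9th in IVF.

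Gab1 had 26.5 and 20.7 FPKM in SCNT blastocysts, against 16.2 and 12.7 FPKM in IVF blastocysts. The groups did not overlap, and the spread within them was alike, the higher library of each group having 1.28 times the level of the lower. Means were 23.6 ± 4.11 FPKM in SCNT and 14.4 ± 2.50 FPKM in IVF (SD, n = 2 each), a ratio of 1.64. The difference was 0.67 ± 0.22 (SE; 95% interval 0.11 to 1.23; limma adjusted p = 0.574), with 381 tested genes above it. It was nearly the same between libraries numbered 1, at 0.68, and between those numbered 2, at 0.67.

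Smoc1, the lowest of the 4, had 5.02 and 4.39 FPKM in SCNT blastocysts, against 3.30 and 2.44 FPKM in IVF blastocysts. The lowest SCNT library lay 1.33 times above the highest IVF library. Means were 4.71 ± 0.442 FPKM in SCNT and 2.87 ± 0.606 FPKM in IVF (SD, n = 2 each), a ratio of 1.64, the same as for Gab1. On the log2(FPKM + 1) scale, the difference was 0.57 ± 0.20 (SE; 95% interval 0.05 to 1.09; limma adjusted p = 0.644), and 539 tested genes had a larger one. A pseudocount of 5 FPKM in place of 1 gave 0.30. Smoc1 stood at the 31.1st percentile of level in SCNT and at the 19.6th in IVF.

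Phf17 had 22.6 and 19.3 FPKM in SCNT blastocysts, against 16.8 and 14.0 FPKM in IVF blastocysts. The gap between the groups was the narrowest of the 4, with the lowest SCNT value 1.15 times the highest IVF value. Means were 21.0 ± 2.34 FPKM in SCNT and 15.4 ± 1.98 FPKM in IVF (SD, n = 2 each), a ratio of 1.37. The interval of the difference included 0: it was 0.43 ± 0.19 (SE; 95% interval -0.06 to 0.92; limma adjusted p = 0.794), with 894 tested genes above it. The difference was 0.41 between libraries numbered 1 and 0.44 between those numbered 2. Slc38a4, an amino acid transporter gene and a noncanonical imprint of the same kind, had 61.9 and 49.5 FPKM in SCNT and 24.9 and 23.0 FPKM in IVF, a difference of 1.17 ± 0.19 (SE; limma adjusted p = 0.274).

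**Figure D2:**
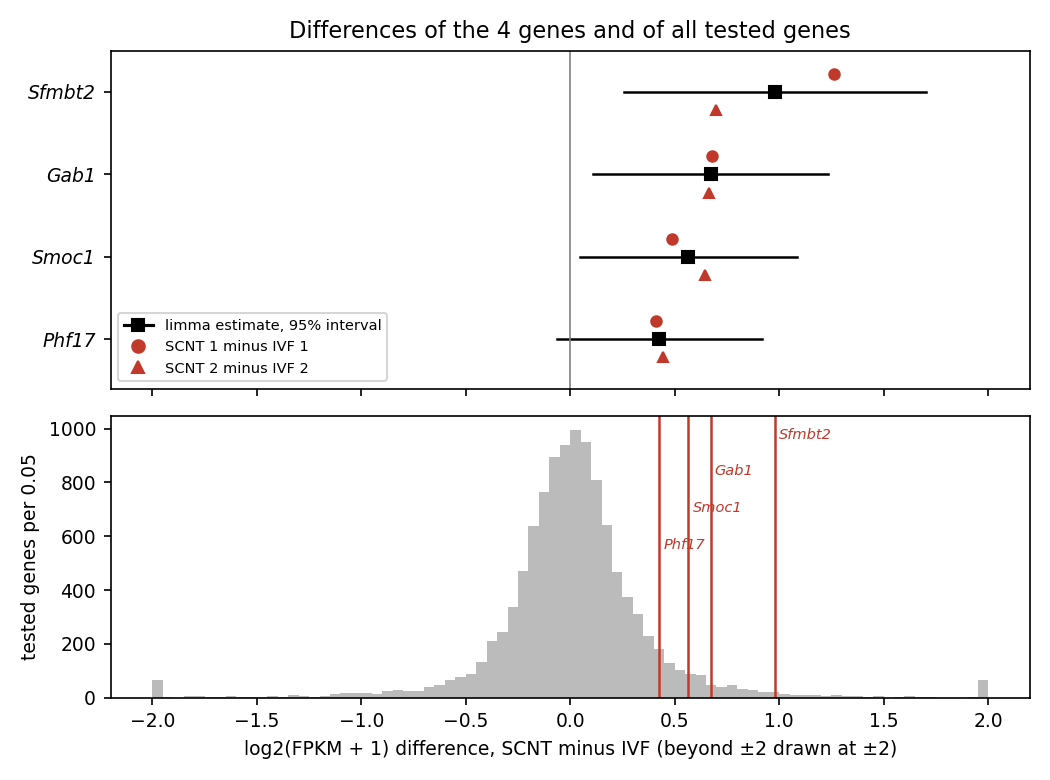
Upper panel, limma differences (SCNT minus IVF, log2(FPKM + 1)) of the 4 genes with 95% intervals, and the same difference between libraries of replicate number 1 (circles) and 2 (triangles); lower panel, the number of tested genes per step of 0.05, with the 4 genes marked. All 4 lie right of the median of all tested genes at 0.01, and the interval of Phf17 alone crosses 0.

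How many of the 4 had an unadjusted p below 0.05 depended on single libraries. Without the first SCNT library Sfmbt2 was the single gene below it, without the second SCNT library Gab1 was, without the first IVF library Gab1 and Smoc1 were, and without the second IVF library Sfmbt2 was. The count was therefore 1, 1, 2 and 1 in place of 3, in fits where the lone library of a group is assumed to vary like the other group. All 4 differences stayed positive with every library left out, which is fixed in advance where the groups do not overlap. The oocyte strain, the nuclear donor and any treatment named in the column headings changed together with the group, so their parts in these differences cannot be told apart.

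**Figure D3:**
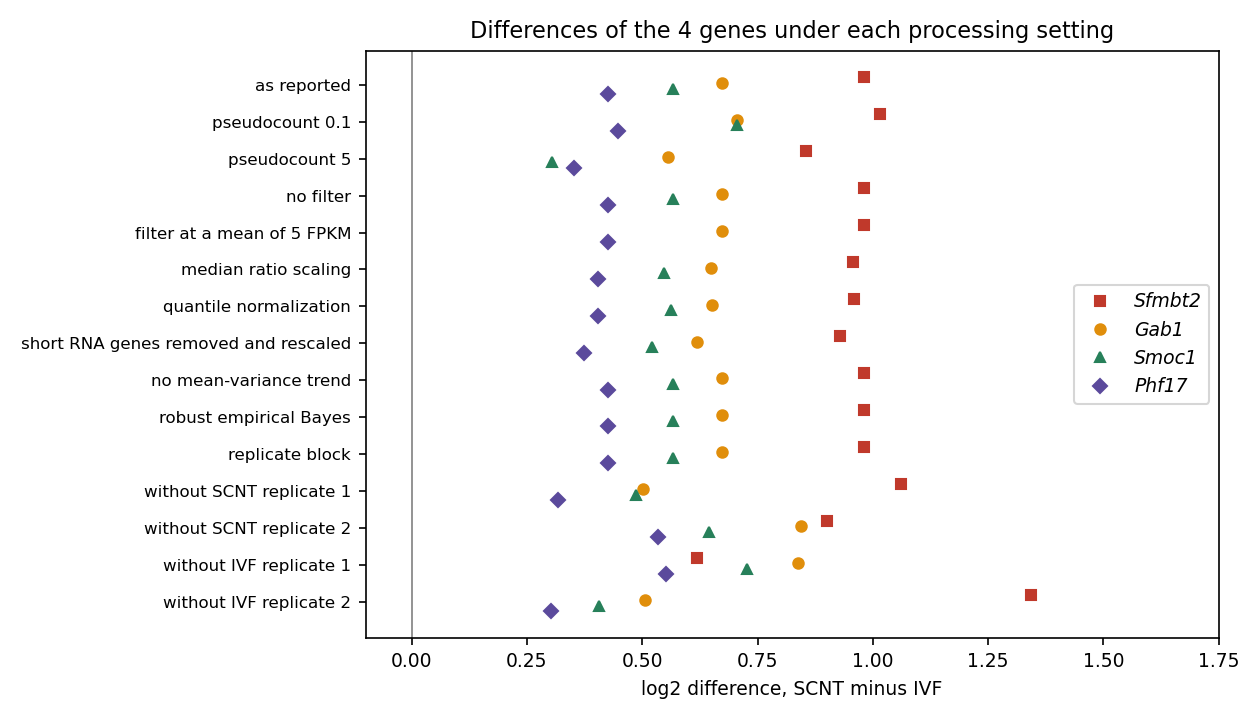
Difference (SCNT minus IVF) of each of the 4 genes as reported and under each of the 14 alternative settings, on the log2 scale of that setting; Smoc1 has no value with the filter at 5 FPKM. Every value is above 0, which groups that do not overlap fix in advance except where the scaling was changed. Sfmbt2 spans 0.62 to 1.34, Gab1 0.50 to 0.84, Smoc1 0.30 to 0.73 and Phf17 0.30 to 0.55.

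Sfmbt2 had the highest mean level of the 4 and Smoc1 the lowest in both groups. In SCNT, Sfmbt2 stood above the other 3 in both libraries, the ranges of Gab1 (20.7 to 26.5 FPKM) and Phf17 (19.3 to 22.6 FPKM) overlapped, and Smoc1 was lowest. In IVF, the ranges of Sfmbt2 (15.2 to 25.8 FPKM), Phf17 (14.0 to 16.8 FPKM) and Gab1 (12.7 to 16.2 FPKM) all overlapped, and only Smoc1 stood apart below them. FPKM is scaled by transcript length, so levels of different genes may be set side by side, with the caveat that the annotated lengths behind them are not given. Summed over the 4 genes, the level was 92.1 and 87.0 FPKM in SCNT, against 51.5 and 54.9 FPKM in IVF, a ratio of means of 1.68. Sfmbt2 made up 41.2% and 48.9% of that sum in SCNT and 29.6% and 47.0% in IVF, so its share overlapped between the groups.

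Ratios between 2 of the genes within the same library do not depend on the library's scaling. Gab1 over Phf17 was 1.17 and 1.07 in SCNT, against 0.966 and 0.907 in IVF, and the groups did not overlap. Smoc1 over Phf17 was 0.222 and 0.227 in SCNT, against 0.197 and 0.175 in IVF, again with no overlap. In these libraries Phf17 thus differed less between the groups than Gab1 and Smoc1 did. The remaining 4 ratios overlapped, among them Sfmbt2 over Phf17. Single tested genes did not overlap at shares of 18.3% (higher in SCNT) and 15.1% (lower). No such share was computed for ratios, so 2 ratios without overlap beside 4 with it are not a result about Phf17. Gab1 over Smoc1, for instance, was 5.28 and 4.71 in SCNT and 4.91 and 5.18 in IVF. Sfmbt2 over Gab1 was 1.43 and 2.06 in SCNT and 0.941 and 2.04 in IVF, nearly equal in the second libraries of both groups.

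The tested genes closest in pattern to each of the 4 were found by Euclidean distance over the 4 libraries, on log2(FPKM + 1) centred on each gene's mean. For Sfmbt2 these were Lgals1 (distance 0.118), S100a13 (0.160) and Vat1l (0.163). For Gab1 they were Lamc1 (0.0807), Erf (0.0817) and Ano6 (0.0826), and for Smoc1 they were Arsa (0.0506), Rgl2 (0.0582) and Gata4 (0.0792). The nearest to Phf17 were Tmem198 (0.0287), Guf1 (0.0319) and Acp5 (0.0342). None of the 4 was among the 3 nearest of another. Sfmbt2 had the most distant neighbours, and its IVF libraries were the farthest apart of the 4 genes.

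A large microRNA cluster lies in an intron of mouse Sfmbt2 and is transcribed with it. RefSeq places 72 microRNA genes inside Sfmbt2, all on its strand, and 36 had a row in the files. Of these, 25 were at 0 in all 4 libraries and 2 were above 0 in all 4. Values above 0 were listed for 8 and 9 of the 36 in the SCNT libraries, against 3 and 5 in the IVF libraries. Over all 23235 genes, 6505 and 5212 were at 0 in SCNT, against 6527 and 5716 in IVF. No such count was made over all short RNA genes, so these counts are not a result about the cluster. FPKM of such short hairpins is unstable, many are near-identical copies whose reads can be divided in more than one way, and the library method was not one for small RNAs.

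Mir669k had 38.2 and 196 FPKM in SCNT, against 110 and 113 FPKM in IVF, and Mir669g had 20.4 and 218 FPKM in SCNT, against 21.3 and 52.4 FPKM in IVF. For both microRNAs the SCNT libraries lay on either side of both IVF libraries, so the groups overlapped. Mir466 had 260 and 131 FPKM in SCNT, against 134 and 0 FPKM in IVF, also overlapping. Mir466o, on the row named Mir4660, had 62.3 FPKM in each SCNT library and was listed at 0 in both IVF libraries. It was the only microRNA of the cluster among the 14 genes called (limma adjusted p = 0.000428). It passed the filter on mean level through the SCNT libraries alone, so that p-value is no separate support for a difference. With no filter on low values its limma adjusted p was 0.0530, above the threshold. No fold is given against values listed at 0.

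Estimates for relatives and partners of the 4 genes lay on both sides of 0, apart from the SPARC-related genes, where a single gene was tested. Of the MBT-domain relatives and YY1 partners of Sfmbt2, 8 of 11 were tested; by limma 0 passed the adjusted threshold and 0 had an unadjusted p below 0.05, with 3 estimates higher and 5 lower in SCNT and a median of -0.07. Sfmbt1, the closest relative, had 1.15 and 0.983 FPKM in SCNT, against 1.42 and 1.02 FPKM in IVF. Yy1, the DNA-binding partner, had 28.0 and 28.3 FPKM in SCNT and 31.5 and 28.1 FPKM in IVF, overlapping. Zfp42 (Rex1), a YY1-related pluripotency factor, had 188 and 191 FPKM in SCNT and 182 and 184 FPKM in IVF. L3mbtl2 had 13.5 and 11.9 FPKM in SCNT and 18.2 and 14.3 FPKM in IVF, lower in SCNT in both libraries at a difference of -0.32 (limma adjusted p = 0.898), and Mbtd1 had 6.20 and 6.41 FPKM in SCNT and 5.08 and 6.74 FPKM in IVF.

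Of the docking partners and receptors of Gab1, 19 of 23 were tested; by limma 0 passed the adjusted threshold and 0 had an unadjusted p below 0.05, with 8 estimates higher and 11 lower in SCNT and a median of -0.04. Gab2, its closest relative, had 4.08 and 4.27 FPKM in SCNT, against 5.52 and 4.66 FPKM in IVF, a difference in the other direction of -0.23 (limma adjusted p = 0.963). Gab3 was at or below 0.235 FPKM in every library and was not tested. The receptor gene Fgfr2, also a trophectoderm marker, had 44.1 and 35.5 FPKM in SCNT, against 29.6 and 25.8 FPKM in IVF, with no overlap and a difference of 0.50 (limma adjusted p = 0.710). The groups overlapped for both adaptor genes of highest mean level. Grb2 had 17.8 and 15.1 FPKM in SCNT and 18.4 and 15.6 FPKM in IVF. Crk had 20.8 and 18.0 FPKM in SCNT and 19.3 and 17.7 FPKM in IVF.

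Of the 7 SPARC-related matrix genes beside Smoc1, only Sparc, which encodes a secreted collagen-binding glycoprotein, was tested. Sparc had 63.1 and 80.1 FPKM in SCNT, against 35.2 and 27.9 FPKM in IVF, with no overlap and a difference of 1.16 ± 0.22 (SE; limma adjusted p = 0.320). Smoc2, the closest relative of Smoc1, was at or below 0.0795 FPKM in every library. Of the BMP pathway, 12 of 23 genes were tested; by limma 0 passed the adjusted threshold and 1 had an unadjusted p below 0.05, with 5 estimates higher and 7 lower and a median of -0.10. Over all tested genes, 4.25% were higher and 2.84% lower at that p, so a count of 1 in 12 is not a result about the pathway. That gene was the ligand Bmp7, at 1.82 and 2.88 FPKM in SCNT against 1.12 and 0.898 FPKM in IVF, a difference of 0.72 (limma adjusted p = 0.574). The BMP target Id2 had 744 and 792 FPKM in SCNT and 482 and 705 FPKM in IVF, with no overlap (difference 0.40, limma adjusted p = 0.907). Another target, Id3, had 169 and 85.0 FPKM in SCNT and 188 and 128 FPKM in IVF, the second SCNT library being the lowest. Smad4, the shared signal transducer, had 16.0 and 12.8 FPKM in SCNT and 13.4 and 10.3 FPKM in IVF, and the inhibitory Smad7 had 12.3 and 13.3 FPKM in SCNT and 16.6 and 12.5 FPKM in IVF; both overlapped.

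Of the JADE and BRPF acetyltransferase complex genes, 11 of 12 were tested; by limma 0 passed the adjusted threshold and 1 had an unadjusted p below 0.05, with 5 estimates higher and 6 lower and a median of -0.02. Against the same shares of 4.25% and 2.84%, a count of 1 in 11 is not a result about the complexes. The gene was Phf16 (Jade3), an X-linked relative of Phf17, at 4.53 and 3.96 FPKM in SCNT against 2.47 and 2.97 FPKM in IVF, a difference of 0.50 (limma adjusted p = 0.678). Phf15 (Jade2), the other relative, was at or below 0.137 FPKM in every library. Myst2, which encodes the catalytic HBO1 subunit, had 20.2 and 16.9 FPKM in SCNT and 21.3 and 18.4 FPKM in IVF. Of the accessory subunit genes, Meaf6 had 38.8 and 37.4 FPKM in SCNT and 31.7 and 34.4 FPKM in IVF. Its difference was 0.20 (limma adjusted p = 0.983), with no overlap, a pattern that 18.3% of all tested genes showed. Ing4 had 17.5 and 23.3 FPKM in SCNT and 19.8 and 27.2 FPKM in IVF, overlapping, at -0.19 (limma adjusted p = 0.9996). Brd1, a BRPF-type scaffold, had 28.8 and 28.0 FPKM in SCNT and 28.1 and 23.5 FPKM in IVF.

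**Figure D4:**
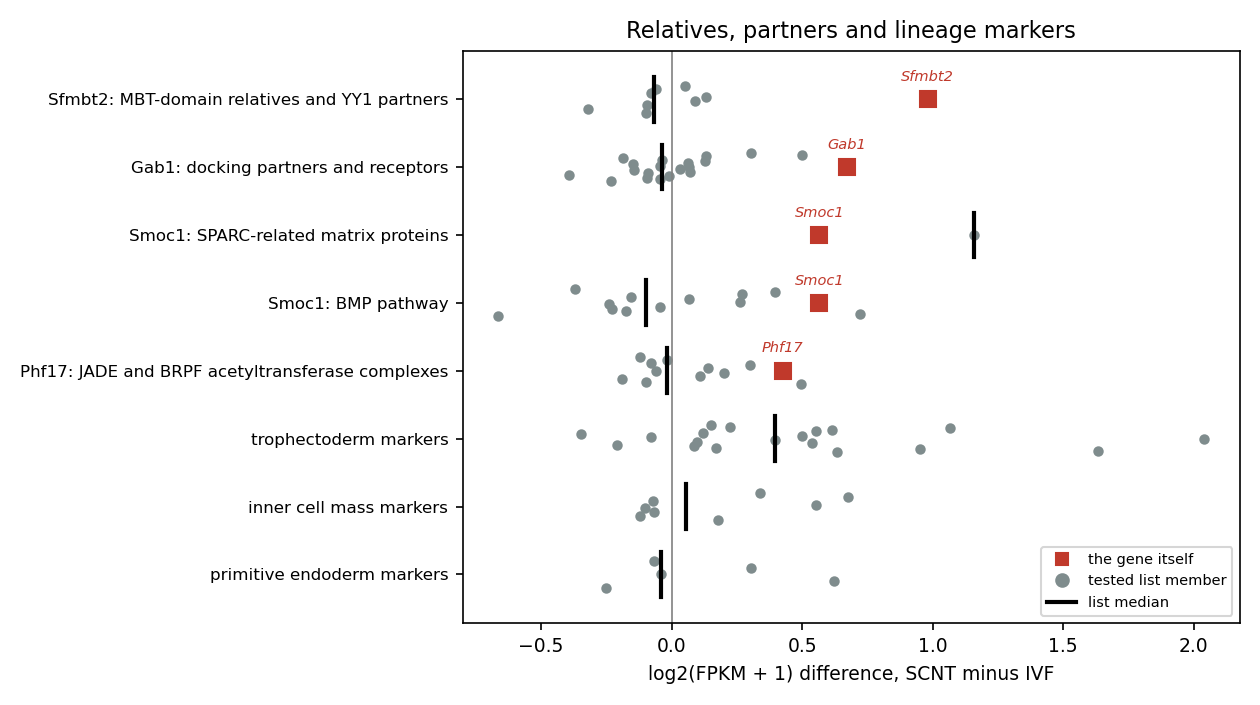
Differences (SCNT minus IVF, log2(FPKM + 1)) of the tested genes of each pathway list, with the gene each list belongs to as a square, and of the tested lineage markers; vertical bars are list medians. The pathway lists centre near 0, at medians of -0.07, -0.04, -0.10 and -0.02, apart from the SPARC-related list, where Sparc at 1.16 is the single tested gene.

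Genes near the 4 on the chromosome were also read, as the 5 nearest protein-coding genes with a row on each side of each. Of these 40 genes, 20 were tested; by limma 0 passed the adjusted threshold and 0 had an unadjusted p below 0.05, with 11 estimates higher and 9 lower in SCNT and a median of 0.01, the same as over all tested genes. The groups did not overlap for 4 of the 20 that were higher and 2 that were lower, near or below the shares of all tested genes (18.3% and 15.1%). Around Phf17, 3 of 6 tested neighbours did not overlap and were higher: Abhd18, Sclt1 and D3Ertd751e. There 1 was lower, Larp1b. The median over the tested neighbours was -0.08 around Sfmbt2, -0.09 around Gab1, 0.04 around Smoc1 and 0.10 around Phf17. Each rests on 4 to 6 genes and its sign was not stable: it was -0.26 around Phf17 with the filter at 5 FPKM, 0.02 around Gab1 with no filter, and, with a library left out, -0.08 to 0.07 around Sfmbt2 and -0.13 to 0.17 around Smoc1.

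Next to Gab1, Smarca5, a chromatin remodeller gene, had 38.9 and 29.9 FPKM in SCNT and 46.1 and 33.6 FPKM in IVF, and Usp38, a deubiquitinase gene on the other side, had 6.55 and 6.05 FPKM in SCNT and 8.21 and 7.10 FPKM in IVF. Both neighbours thus had estimates below 0, at -0.20 and -0.24, while Gab1 between them was at 0.67. Next to Phf17, Sclt1, a centriole protein gene, had 3.10 and 1.91 FPKM in SCNT, against 1.74 and 1.43 FPKM in IVF, an estimate of 0.42 (limma adjusted p = 0.891) beside 0.43 for Phf17 itself. With a library left out, the estimate of Sclt1 ranged from 0.17 to 0.67. Larp1b, the second gene on the other side, had 19.6 and 24.1 FPKM in SCNT and 36.2 and 24.4 FPKM in IVF, an estimate of -0.43.

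**Figure D5:**
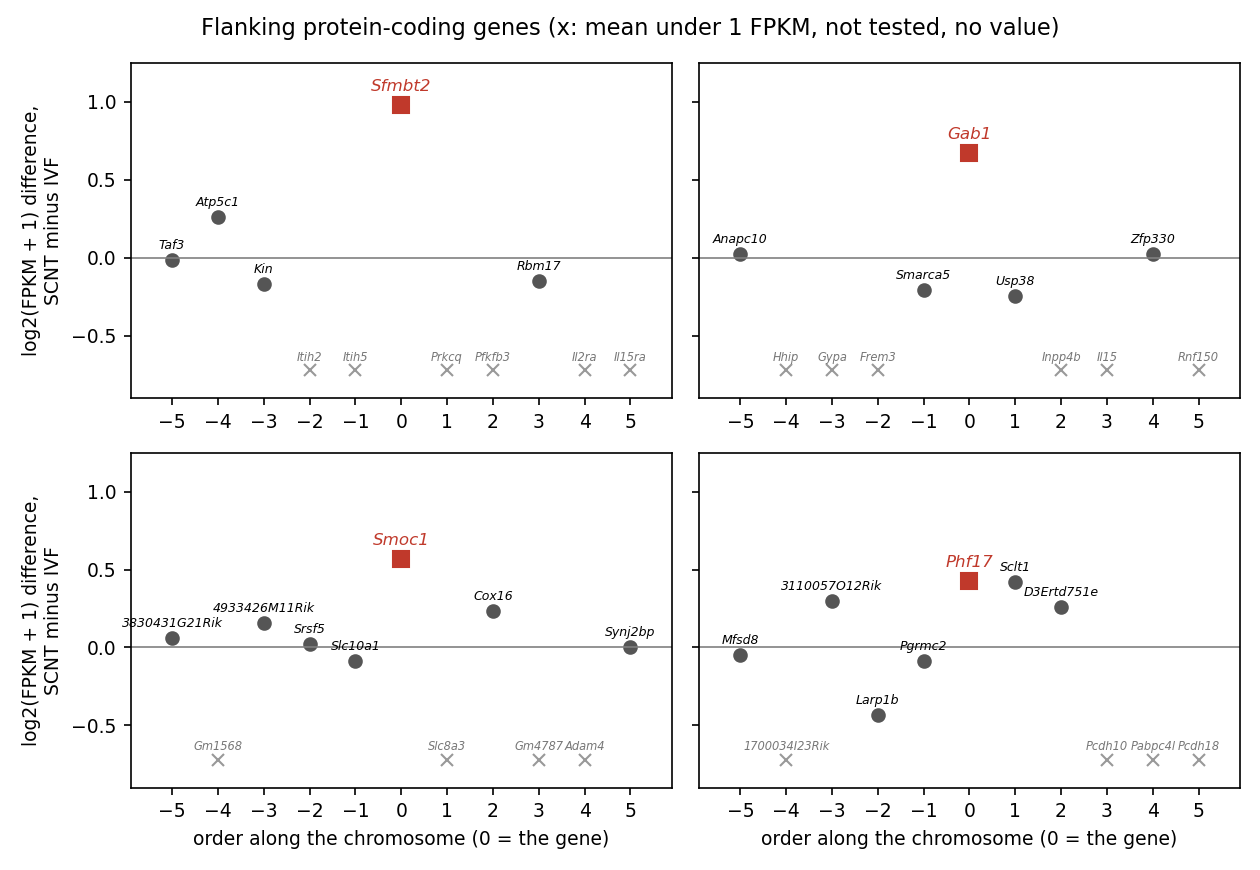
Differences (SCNT minus IVF, log2(FPKM + 1)) of each of the 4 genes, at position 0, and of its tested neighbours by their order along the chromosome, up to 5 on each side. Sfmbt2, Gab1 and Smoc1 stand above their tested neighbours, whose medians are -0.08, -0.09 and 0.04, and Phf17 at 0.43 stands beside its neighbour Sclt1 at 0.42, an estimate that ranges from 0.17 to 0.67 with a library left out.

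Noncanonical imprints are best known from trophoblast, and most markers of that lineage had higher estimates in SCNT. By limma 0 of the 19 trophectoderm markers passed the adjusted threshold. An unadjusted limma p below 0.05 was reached by 6, all higher in SCNT, where 4.25% of all tested genes were. The list was chosen with earlier results of these data known, so this count is no test of the lineage. Of the estimates, 16 were higher and 3 lower, with a median of 0.40. The summed level of the 19 was 6949 and 4765 FPKM in SCNT, against 4915 and 4184 FPKM in IVF, which overlapped. Elf5, a transcription factor of trophoblast stem cells, had 17.9 and 9.50 FPKM in SCNT, against 3.23 and 3.88 FPKM in IVF, a difference of 1.63 ± 0.32 (SE; limma adjusted p = 0.320). Cdx2, which specifies the lineage, had 36.6 and 29.5 FPKM in SCNT and 20.0 and 21.7 FPKM in IVF, with no overlap.

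The other 4 were Eomes, at a difference of 0.95, Krt7, at 0.54, Krt19, at 2.04, and Tspan8, at 1.07. The 3 markers with lower estimates were Hand1, at -0.35, Tfap2c, at -0.21, and Tead4, at -0.08. Among those with higher estimates, Gata3 was at 0.09 and Krt8 at 0.10. With a library left out, the median of the 19 ranged from 0.06, without the first SCNT library, to 0.53. Inner cell mass markers had a median of 0.06 over 8 tested and primitive endoderm markers one of -0.04 over 5, in which Gata4 had 9.77 and 9.18 FPKM in SCNT and 6.59 and 5.09 FPKM in IVF (difference 0.62, limma adjusted p = 0.548). Groups did not overlap for 8 of 19 trophectoderm, 2 of 8 inner cell mass and 2 of 5 primitive endoderm markers, all higher in SCNT. Over all tested genes, 18.3% showed that pattern. The lists were chosen with earlier results of these data known, so these counts are no test. Esrrb was counted in both the trophectoderm and the inner cell mass list. Each library is a whole-embryo pool, in which more cells of a type and more RNA per cell cannot be told apart. The part of the trophectoderm markers in the differences of Sfmbt2, Gab1, Smoc1 and Phf17 was not tested.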

How the data were processed

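RNA-seq values of 4 libraries, 2 from SCNT and 2 from IVF blastocysts grouped by their titles, were used as deposited. Per the labels' protocols, cDNA was amplified from direct lysates (SMARTer Ultra Low Input), sheared, and turned into libraries (NEBNext Ultra DNA). Pooling averages over embryos, and amplification adds noise to low genes. The deposited values were taken as FPKM, inferred from the values and from Cufflinks in the submitters' processing notes, which name TopHat2 2.0.14, Bowtie2 2.1.0, Cufflinks 2.2.1 and the mm9 build; the authors' annotation, filters and use of strand are stated in none of the sources used. FPKM are relative to all genes of a library, and reads of near-identical genes can be divided in more than one way.

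The 4 genes and all lists were chosen with earlier results of these data known. Genes with a mean of at least 1 FPKM (11039) were tested two-sided on log2(FPKM + 1) with limma 3.58.1 (R 4.3.3), with empirical Bayes moderation, a mean-variance trend and group as the only term, and p-values were Benjamini-Hochberg adjusted over all of them (threshold 0.05). The fit was tested on simulated data. SD, SE and intervals cover 2 libraries a group. Named were the 4 genes, Slc38a4, and of each pathway list the closest relatives, every gene at an unadjusted p below 0.05 and up to 4 others of highest mean, a single one of which is not reported here; of the flanking genes, the microRNAs and the lineage markers, some are named after their values were seen. Windows, names and gene order come from RefSeq (GRCm38.p6) and the strand of microRNAs from GENCODE; no coordinates were converted from mm9. As relative depth, the FPKM worth of a fragment among low genes was 0.965 times as large in the first SCNT as in the first IVF library and 1.03 times in the second pair. No 2 libraries shared an equal value above 0. The alternatives changed the pseudocount, the filter on low values, the scaling, the moderation, the replicate block and the libraries used. Replicate numbers are shared by the groups but not described as pairs, so the block was an alternative.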

Additional observations from a re-analysis of the deposited data

How the results depend on the processing

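All 4 genes kept their direction under every alternative, 14 for Sfmbt2, Gab1 and Phf17 and 13 for Smoc1, which was not tested with a filter at 5 FPKM, and none passed the adjusted threshold in any; limma adjusted p ranged over 0.141 to 1 (Sfmbt2), 0.122 to 1 (Gab1), 0.193 to 1 (Smoc1) and 0.194 to 1 (Phf17). Non-overlap held for 4 of 4 except with that filter, for 3. With groups that do not overlap, only the alternatives that changed the scaling could have turned a direction. The 3 genes at an unadjusted p below 0.05 became 0 without a filter, 2 with short RNA genes removed or a filter at 5 FPKM (without Smoc1 in both), 4 with the replicate block (SE of Phf17 0.11 in place of 0.19) and 1 to 2 with a library left out. Over all genes, 14 calls became 0 without a filter (1750 at an unadjusted p below 0.05), 9 (3 higher, 6 lower, against 8 and 6) with short RNA genes removed and the rest rescaled, 36 to 43 with a library left out and 20 with the replicate block; the causes were not tested. In the labels, same-numbered libraries of the groups share only a number. The difference between replicates 1 and 2 in SCNT correlated across genes with that in IVF at r = 0.31. The median absolute log2 difference was 0.194 and 0.178 between same-numbered libraries of the groups, against 0.236 within SCNT and 0.271 within IVF. Same-numbered libraries of different groups were thus closer to each other than libraries of the same group, and the cause was not tested.

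Of 181 list medians under the alternatives, 24 differed in sign from the reported one and 11 moved; pathway medians spanned -0.11 to 0.02 (Sfmbt2), -0.09 to 0.07 (Gab1), -0.16 to 0.11 (BMP) and -0.07 to 0.07 (Phf17).

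Of 34 named genes outside the 4 that were followed under the alternatives, 11 had an estimate of opposite sign in at least 1 setting, none of them called. Zfp42 was at -0.0038 with short RNA genes removed. With a library left out, ranges that crossed 0 were -0.23 to 0.032 for Sfmbt1, -0.16 to 0.0024 for Yy1, -0.083 to 0.26 for Mbtd1, -0.034 to 0.16 for Crk, -0.16 to 0.071 for Grb2, -0.86 to 0.12 for Id3, -0.35 to 0.038 for Smad7, -0.41 to 0.027 for Ing4, -0.22 to 0.025 for Myst2 and -0.43 to 0.018 for Smarca5. The number of libraries limits precision, and absolute depth is unknown.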

Other observations

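Platr4, a long noncoding RNA gene on the row of its older name C430002E04Rik, lies near Phf17 and was read after its values had been seen. It had 5.49 and 4.60 FPKM in SCNT, against 2.68 and 3.38 FPKM in IVF, with no overlap and a difference of 0.59 ± 0.20 (SE, log2(FPKM + 1); limma adjusted p = 0.595). Xist had 4.13 and 3.33 FPKM in SCNT, against 1.09 and 13.9 FPKM in IVF, so the IVF libraries lay on either side of both SCNT libraries. Genes for short RNAs made up 9.50% and 9.73% of summed FPKM in SCNT, against 12.4% and 12.2% in IVF; their part in the differences between the groups was not tested beyond the rescaling without them.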
